A study of Mus musculus with 6 samples.

Results

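Potassium channel genes were examined in LβT2 cells, an immortalized mouse line of the pituitary gonadotrope, the cell that secretes the gonadotropins. The genes were chosen by name, as the protein-coding entries whose symbol begins with Kcn, goes on with a lower-case letter and ends in a digit. This rule uses no measured value, and it picked 92 of the 47069 genes in the count table. The samples were 6 bulk mRNA libraries from cells at passage 14, and the cells of all 6 had received 2 nM gonadotropin-releasing hormone (GnRH) for 40 min. In 3 libraries the cells were fresh, and in the other 3 they had been preserved in RNA-Best, a reagent that stabilizes RNA in intact cells and in which the methods give a storage of at least 4 days at 4°C. No library analysed here came from cells without the hormone, so the comparison available is that between fresh and RNA-Best cells.

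The fresh libraries held 14477304 to 47438746 counts and the RNA-Best libraries 4909418 to 11999363, so every fresh library was the deeper. Levels are given as CPM, the count scaled to a fixed library total, with the totals corrected by edgeR's TMM factors. A count of 0 allows up to 3 counts, which is 0.0635 CPM at the highest depth and 0.609 CPM at the lowest, and such limits cover counting error only. The sources used here do not tell if each library had its own culture, so n counts libraries and the spread between them may be technical. Of 10 gonadotrope markers, 9 were detected and *Fshb* was at 0, and their summed level was 3479 to 3519 CPM in fresh and 2981 to 3038 CPM in RNA-Best libraries. Of the 9, 3 were higher and 3 lower, and the sum mostly followed *Cga* (1822 and 1419 CPM on average), whereas *Gnrhr*, the GnRH receptor, was higher (120 and 163 CPM). Markers of other hormone cells summed to 8.58 to 11.1 CPM, of folliculostellate and stem cells to 0.609 to 2.99 CPM and of blood cells to 2.80 to 4.06 CPM, with *Prl*, *Pou1f1*, *Sox2* and *Ptprc* at 0. The 7 markers of fibroblasts and vessels summed to 191 to 193 CPM in fresh and 193 to 207 CPM in RNA-Best libraries, with *Cdh5* the highest and *Col3a1* and *Dcn* at 0. The part of these differences in the results was not tested, and in bulk RNA fewer cells of a type and less RNA per cell cannot be told apart.

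Potassium channels let potassium ions leave the cell and so set the resting potential and end each action potential. In gonadotropes, GnRH raises intracellular calcium, and calcium-activated potassium channels then pull the membrane potential down, which shapes the firing that accompanies secretion. Pore-forming subunits fall into voltage-gated, calcium- or sodium-activated, inward rectifier and two-pore leak channels, and auxiliary subunits bind them and alter their gating or traffic.

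Pore-forming subunits share a short stretch, the selectivity filter, at which potassium ions pass in single file. It was searched for in the coding sequence in frame on the coding strand as a threonine codon (ACN, where N is any base), any codon, a glycine codon (GGN), any codon that starts with T and a last glycine codon, in the GENCODE annotation of GRCm38. The pattern was found in 66 of the 77 pore-forming members (85.7%), in 0 of the 15 auxiliary members and in 2.41% of 21592 protein-coding genes. All 14 two-pore genes held it, 11 of them at 2 or more places, and it was not found in *Kcnh1*, *Kcnh2*, *Kcnh3*, *Kcnh4*, *Kcnh6*, *Kcnh7*, *Kcnh8*, *Kcnn1*, *Kcnn2*, *Kcnn3* and *Kcnj14*. A filter that differs at a fixed codon, such as the first threonine, is missed by this pattern, so no match does not mean no filter. A match, in turn, need not be the filter. The sequences below are those of the member with the highest level, the member with the largest difference between groups and others that the results turn on, each 5′ to 3′ with the 15 bases of the pattern in capitals and 15 bases on either side.
Kcnk3, first pore: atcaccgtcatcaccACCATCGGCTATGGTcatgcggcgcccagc
Kcnk3, second pore: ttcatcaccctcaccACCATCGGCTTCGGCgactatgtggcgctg
Kcnk9, first pore: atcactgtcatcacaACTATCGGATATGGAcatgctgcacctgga
Kcnk9, second pore: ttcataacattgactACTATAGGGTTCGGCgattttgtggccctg
Kcng4: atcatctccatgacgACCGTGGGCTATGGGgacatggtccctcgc
Kcnma1: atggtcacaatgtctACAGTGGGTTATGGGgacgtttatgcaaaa
Kcnj3: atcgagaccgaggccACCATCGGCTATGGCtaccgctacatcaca
Kcnj6: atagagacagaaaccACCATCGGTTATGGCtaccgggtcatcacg
The first pores of *Kcnk3*, on the plus strand at chr5:30588578-30621913, and of *Kcnk9*, on the minus strand at chr15:72513022-72546018, both cross the junction of exons 1 and 2, and these coordinates include the intron. Their second pores lie in exon 2, at chr5:30622187-30622231 and chr15:72512704-72512748. *Kcnk3* and *Kcnk9* shared 35 of 45 bases at the first pore and 34 of 45 at the second, whereas the 2 pores of *Kcnk3* shared 26 of 45. The stretch of *Kcng4* lies in exon 3 at chr8:119625895-119625939 on the minus strand and that of *Kcnma1* in exon 8 at chr14:23528398-23528442 on the minus strand. *Kcnj3*, in exon 2 at chr2:55437612-55437656 on the plus strand, and *Kcnj6*, in exon 3 at chr16:94832762-94832806 on the minus strand, shared 36 of 45 bases.

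At a mean of 1 CPM or more over the 6 libraries, 40 of the 92 members were expressed (43.5%), against 55.2% of the 21637 protein-coding genes in the table. A further 42 had a mean above 0 and below 1 CPM, and 10 had no count in any library: *Kcna2*, *Kcna3*, *Kcna5*, *Kcnc2*, *Kcnd3*, *Kcnj8*, *Kcnk16*, *Kcns1*, *Kcnt2* and *Kcnv1*. The threshold fell between *Kcne3* (1.90 CPM) and *Kcnh6* (1.36 CPM) above it and *Kcnk12* (0.988 CPM) and *Kcnh4* (0.978 CPM) below it. Between 55 and 78 members had at least 1 count in a library, most in the deepest and fewest in the shallowest. With every library thinned to 4909268 counts the number was 55 to 58 in fresh and 55 to 60 in RNA-Best libraries, so detection did not separate the groups at equal depth.

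Of the voltage-gated channels, 19 of 40 members were expressed. Among them were *Kcna4* and *Kcna7* of 8 Kcna genes, *Kcnb2*, *Kcnc1*, *Kcnc4*, *Kcnd1* and *Kcnd2* of 3 Kcnd genes, *Kcng4* of 4 Kcng genes, *Kcnh1*, *Kcnh2*, *Kcnh3*, *Kcnh6* and *Kcnh7* of 8 Kcnh genes, *Kcns2* of 3 Kcns genes and *Kcnv2* of 2 Kcnv genes. The only Kcnf gene, *Kcnf1*, had 1 count in 1 library. Of the calcium- or sodium-activated channels 5 of 8 were expressed, which were *Kcnma1*, *Kcnn1*, *Kcnn2* and *Kcnn3* of 4 Kcnn genes and *Kcnt1* of 2 Kcnt genes, while *Kcnu1* had at most 0.0846 CPM. Of the inward rectifiers 6 of 15 were expressed, which were *Kcnj2*, *Kcnj3*, *Kcnj4*, *Kcnj5*, *Kcnj6* and *Kcnj10*. Of the two-pore leak channels 3 of 14 were expressed, which were *Kcnk1*, *Kcnk3* and *Kcnk9*. Of the auxiliary subunits 7 of 15 were expressed, which were *Kcnab2* and *Kcnab3* of 3 Kcnab genes, *Kcne3* of 4 Kcne genes, *Kcnip1*, *Kcnip2* and *Kcnip3* of 4 Kcnip genes and *Kcnmb2* of 4 Kcnmb genes.

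Levels of different genes were compared per kb of exonic length, as CPM per kb with the mean and SD over the 6 libraries. The highest was *Kcnk3*, an acid-sensitive leak channel that holds the resting potential, at 69.1 ± 6.10 CPM per kb (SD, n = 6). It made up 22.3% to 22.8% of the summed CPM per kb of all members in fresh and 19.0% to 20.2% in RNA-Best libraries. *Kcng4*, a modifier subunit that carries no current of its own and pairs with Kcnb subunits, followed at 40.8 ± 1.59 CPM per kb (SD, n = 6). Next were *Kcnab3*, a cytoplasmic subunit of voltage-gated channels, at 29.4 ± 1.08 CPM per kb (SD, n = 6), and *Kcnh2*, the channel of the ERG current, at 24.6 ± 1.46 CPM per kb (SD, n = 6). *Kcnip3*, a calcium-binding subunit of Kcnd channels, stood at 20.3 ± 1.13 CPM per kb (SD, n = 6). These 5 kept their order in 6 of 6 libraries, and each lay above the next member in all of them.

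Below them the order of neighbours turned with the group. *Kcnab2* (14.8 CPM per kb in fresh, 13.9 in RNA-Best) lay above the sodium-activated channel *Kcnt1* (11.4 and 14.7) in 3 of 3 fresh libraries and in 1 of 3 RNA-Best libraries. The leak channel *Kcnk1* (11.8 and 10.6 CPM per kb) lay above the inward rectifier *Kcnj2* (10.7 and 12.1) in every fresh library and below it in every RNA-Best library. *Kcnma1*, the large-conductance calcium-activated channel (5.73 and 8.49 CPM per kb), lay below *Kcnd2*, which carries a transient A-type current (6.51 and 7.57), in every fresh library and above it in every RNA-Best library. *Kcnk9* was among the lowest of the expressed members, at 0.466 ± 0.281 CPM per kb (SD, n = 6), and its level differed between the groups.

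Several channels known from other endocrine cells were near or at 0. *Kcnj11*, the pore of the ATP-sensitive channel of the pancreatic beta cell, had a mean of 0.147 CPM and its vascular relative *Kcnj8* had no count. Of the sulfonylurea receptors that complete this channel, *Abcc8* had 5.54 ± 0.30 CPM in fresh and 5.91 ± 0.516 CPM in RNA-Best libraries (SD, n = 3 each) and *Abcc9* had no count. *Kcnq3*, a subunit of M-current channels, had 1 count in 1 library. *Kcnk2*, a mechanosensitive leak channel, had a mean of 0.0480 CPM, and *Kcna5* and *Kcnd3* had no count.

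**Figure D1:**
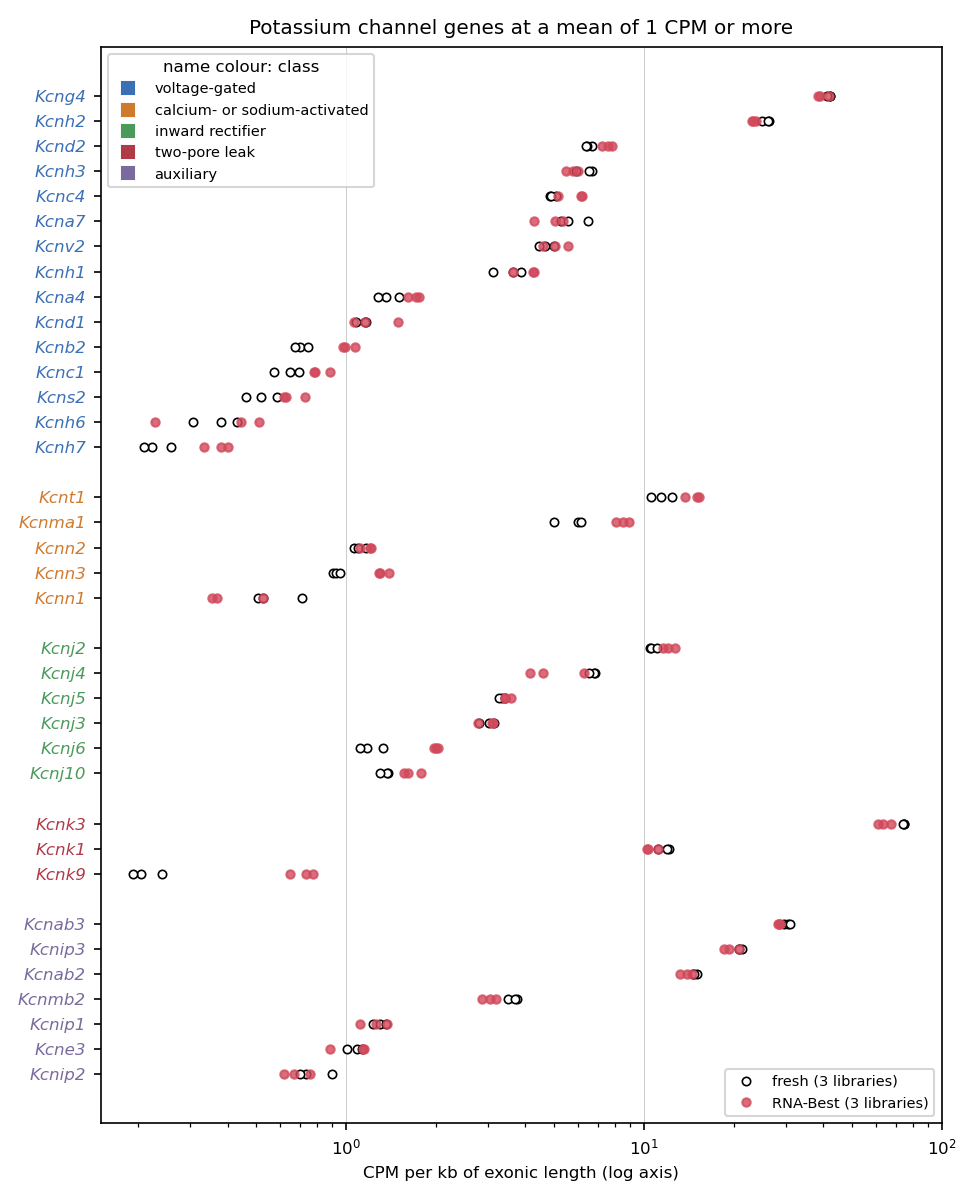
Level of 36 of the 40 expressed potassium channel genes in each of the 6 libraries, as CPM per kb of exonic length on a log axis, grouped by class and ordered by the mean. Open circles are fresh and red circles RNA-Best libraries; *Kcnk3* stands highest at 69.1 CPM per kb on average, and the 2 groups of *Kcnk9* lie far apart.

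RNA-Best cells were set against fresh cells by the quasi-likelihood test in edgeR, run on the 14736 genes that passed a filter on low counts, adjusted by Benjamini-Hochberg over all of them and read at a threshold of 0.05. The filter kept 43 members, namely the 40 expressed ones, *Kcnk12*, *Kcnh4* and *Kcnj15*, and the other 49 were not tested. Of the 43, 23 (53.5%) passed the test, against 50.7% of all genes tested, so the share was near the background. The calls split into 18 higher and 5 lower in RNA-Best, where among all genes tested 26.0% were higher and 24.7% lower. The median log2 fold change, RNA-Best minus fresh, was 0.12 over the 43 members and -0.0074 over all genes tested. Most differences were small, since 37 of the 43 had an absolute log2 fold change under 0.5 and only *Kcnk9* exceeded 1. In 18 members all RNA-Best values lay above all fresh values and in 8 below, while among all genes tested 57.9% had groups that did not overlap, 29.0% above and 29.0% below. By DESeq2's Wald test 15 members passed, 12 higher and 3 lower, against 40.4% of all genes, 21.7% higher and 18.7% lower.

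The largest difference was in *Kcnk9*, a leak channel of the same acid-sensitive group as *Kcnk3*. The gene (ENSMUSG00000036760) lies at chr15:72501089-72546340. It had 2.53, 2.96 and 2.36 CPM in the fresh libraries and 9.05, 9.55 and 7.97 CPM in the RNA-Best libraries. Every RNA-Best library was thus well above every fresh one. The level was 3.19-fold higher in RNA-Best, a log2 fold change of 1.67 (SE 0.13, edgeR adjusted p = 1.71e-13). Under the length offset described further on, it was 1.36 and still passed the test.

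*Kcnk3* (ENSMUSG00000049265, chr5:30588170-30625271) moved the other way. It had 296, 297 and 294 CPM in the fresh libraries and 268, 252 and 242 CPM in the RNA-Best libraries. The fresh values lay close together and above all RNA-Best values. The log2 fold change was -0.22 (SE 0.031, edgeR adjusted p = 1.84e-07), and it was -0.24 with the length offset and -0.12 with an offset for GC content, both past the test. Even so, *Kcnk3* in RNA-Best libraries was the highest member per kb. *Kcnk1*, a weak leak channel, had 26.3 ± 1.17 CPM in fresh and 23.7 ± 1.11 CPM in RNA-Best libraries (SD, n = 3 each), with an edgeR adjusted p of 0.048, just under the threshold. Of the 4 two-pore members tested, 1 was higher, 2 were lower and *Kcnk12* did not pass. Among all genes tested 26.0% were higher and 24.7% lower. The *Kcnk1* call was lost with the length offset (-0.095, edgeR adjusted p = 0.264).

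Of the 20 voltage-gated members tested, 11 were higher, 1 was lower and 8 did not pass, where 26.0% of all genes tested were higher and 24.7% lower. With the length offset 4 of the 20 were higher and 2 lower, against 14.7% and 27.6%. *Kcnb2* (ENSMUSG00000092083, chr1:15287254-15723750), a delayed rectifier, had 10.6, 11.3 and 10.2 CPM in the fresh libraries and 14.8, 16.2 and 15.1 CPM in the RNA-Best libraries. The groups did not overlap (log2 fold change 0.49 ± 0.085, SE, edgeR adjusted p = 8.69e-06). With the length offset the *Kcnb2* call was lost (0.11, edgeR adjusted p = 0.315). Silent subunits join Kcnb channels, and no test compared them with *Kcnb2*. *Kcng4* stood at 159 ± 2.30 CPM in fresh and 152 ± 6.56 CPM in RNA-Best libraries and *Kcnv2* at 24 ± 1.38 and 25.8 ± 2.53 CPM (SD, n = 3 each), and neither passed the test. *Kcns2* was higher, from 2.91 ± 0.344 to 3.68 ± 0.339 CPM (SD, n = 3 each, edgeR adjusted p = 0.0363). The *Kcns2* call was lost with the length offset (0.32, edgeR adjusted p = 0.126).

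*Kcnc1* and *Kcnc4*, of a subfamily that carries fast delayed rectifier currents, were higher, with log2 fold changes of 0.29 for *Kcnc1* and 0.21 for *Kcnc4*. With the length offset the *Kcnc1* call was lost (0.048, edgeR adjusted p = 0.791) and *Kcnc4* passed at 0.20. The A-type channels *Kcnd2* and *Kcna4* were also higher, *Kcnd2* by 0.21 and *Kcna4* by 0.26 on the log2 scale. The *Kcna4* call lay just under the threshold (edgeR adjusted p = 0.0495) and was lost with the length offset (0.20, adjusted p = 0.149). The *Kcnd2* call was lost with the length offset (0.13, edgeR adjusted p = 0.0504), with the GC offset (0.078, adjusted p = 0.244) and in thinned libraries (0.14, adjusted p = 0.214).

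*Kcnh2* (ENSMUSG00000038319, chr5:24319589-24351604) had 121, 127 and 127 CPM in the fresh libraries and 115, 112 and 111 CPM in the RNA-Best libraries. All RNA-Best values were lower, by a small amount (log2 fold change -0.14 ± 0.036, SE, edgeR adjusted p = 0.00111). With the GC offset the value was -0.025 and the *Kcnh2* call was lost (edgeR adjusted p = 0.59). *Kcnh7*, a second gene of the ERG group, had 3.94, 3.39 and 3.20 CPM in fresh and 5.77, 6.09 and 5.06 CPM in RNA-Best libraries (log2 fold change 0.62 ± 0.14, SE, edgeR adjusted p = 0.000327), and its call was lost with the length offset (0.24, adjusted p = 0.169). The third, *Kcnh6*, had 1.32 ± 0.220 and 1.40 ± 0.522 CPM (SD, n = 3 each) and did not pass. Of the related EAG and ELK channels, *Kcnh1* was higher by 0.18 on the log2 scale, which the length offset took to 0.018 (adjusted p = 0.858), and *Kcnh3* (36.7 ± 2.34 and 33.1 ± 1.54 CPM, SD, n = 3 each) did not pass.

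Of the 5 calcium- or sodium-activated members tested, 3 were higher and 2 did not pass. Among all genes tested 26.0% were higher and 24.7% lower. With the length offset 1 of the 5 was higher, against 14.7% of all genes tested higher and 27.6% lower. *Kcnma1* (ENSMUSG00000063142, chr14:23289431-24014491) had 102, 105 and 85.0 CPM in the fresh libraries and 145, 151 and 137 CPM in the RNA-Best libraries. The third fresh library stood below the other 2, and all RNA-Best values were above all fresh ones (log2 fold change 0.52 ± 0.075, SE, edgeR adjusted p = 0.000306). With the length offset the *Kcnma1* value was 0.11 and the call was lost (edgeR adjusted p = 0.0505). Its auxiliary subunit *Kcnmb2*, which makes the channel inactivate, was lower, from 11.4 ± 0.386 to 9.48 ± 0.515 CPM (SD, n = 3 each, log2 fold change -0.25 ± 0.096, SE, edgeR adjusted p = 0.0293), and this call too was lost with the length offset (-0.22, adjusted p = 0.0561). The *Kcnmb2* value was -0.43 with the GC offset (edgeR adjusted p = 0.000248) and -0.040 in thinned libraries (adjusted p = 0.874). Of the small-conductance channels, whose current follows calcium release in gonadotropes, *Kcnn3* (ENSMUSG00000000794, chr3:89520164-89675132) had 9.42, 9.65 and 10.0 CPM in fresh and 13.5, 14.6 and 13.6 CPM in RNA-Best libraries (log2 fold change 0.52 ± 0.088, SE, edgeR adjusted p = 5.51e-06), and 0.25 with the length offset, still past the test. *Kcnn2* (8.27 ± 0.374 and 8.78 ± 0.396 CPM, SD, n = 3 each) and *Kcnn1* (2.67 ± 0.518 and 1.91 ± 0.432 CPM, SD, n = 3 each) did not pass. *Kcnt1* rose from 109 ± 8.97 to 139.6 ± 7.99 CPM (SD, n = 3 each, log2 fold change 0.35 ± 0.070, SE, edgeR adjusted p = 0.00197), and with the length offset the *Kcnt1* call was lost (0.10, adjusted p = 0.215). With the block and the length offset together *Kcnt1* passed (0.13, edgeR adjusted p = 0.0151).

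Of the 7 inward rectifiers tested, 3 were higher, 1 was lower and 3 did not pass, where 26.0% of all genes tested were higher and 24.7% lower. With the length offset 2 were higher and 1 lower, against 14.7% and 27.6% of all genes tested. *Kcnj3*, *Kcnj5* and *Kcnj6* form channels opened by G proteins. *Kcnj6* (ENSMUSG00000043301, chr16:94748636-94997701) had 10.2, 8.95 and 8.47 CPM in fresh and 15.3, 15 and 15.6 CPM in RNA-Best libraries (log2 fold change 0.72 ± 0.091, SE, edgeR adjusted p = 1.93e-08). The RNA-Best values were all higher, whereas *Kcnj3* had 15.6 ± 0.919 and 15.6 ± 1.03 CPM and *Kcnj5* 15.7 ± 0.319 and 16.3 ± 0.416 CPM (SD, n = 3 each) and neither passed. Of the strong rectifiers, *Kcnj2* was higher, from 58.2 ± 1.66 to 66.1 ± 3.26 CPM (SD, n = 3 each, log2 fold change 0.21 ± 0.045, SE, edgeR adjusted p = 0.000206). With the GC offset the *Kcnj2* call was lost (0.043, edgeR adjusted p = 0.45), as it was with the replicate block and the length offset together (0.098, adjusted p = 0.0792). *Kcnj4* (ENSMUSG00000044216, chr15:79483714-79505241) had 14.7, 14.7 and 14.0 CPM in fresh and 13.6, 8.94 and 9.87 CPM in RNA-Best libraries (log2 fold change -0.41 ± 0.098, SE, edgeR adjusted p = 0.000529). The first RNA-Best library of *Kcnj4* lay close to the fresh values and the other 2 well below them. Without the third RNA-Best library the *Kcnj4* call was lost (log2 fold change -0.29, edgeR adjusted p = 0.0516), and the adjusted p of all alternatives spanned 6.13e-06 to 0.324. *Kcnj10*, a rectifier best known from glia, was higher by 0.27 on the log2 scale (edgeR adjusted p = 0.0288). The *Kcnj10* call was lost with the length offset (0.19, edgeR adjusted p = 0.160).

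Of the 7 auxiliary members tested, *Kcnmb2* was lower and 6 did not pass, where 26.0% of all genes tested were higher and 24.7% lower. In 4 of the 7 all RNA-Best values lay below all fresh values, against 29.0% of all genes tested, and 3 of the 4 missed the threshold, *Kcnab2* at -0.08, *Kcnab3* at -0.09 and *Kcnip3* at -0.10 on the log2 scale. *Kcnip1*, *Kcnip2* and *Kcne3* overlapped between the groups.

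**Figure D2:**
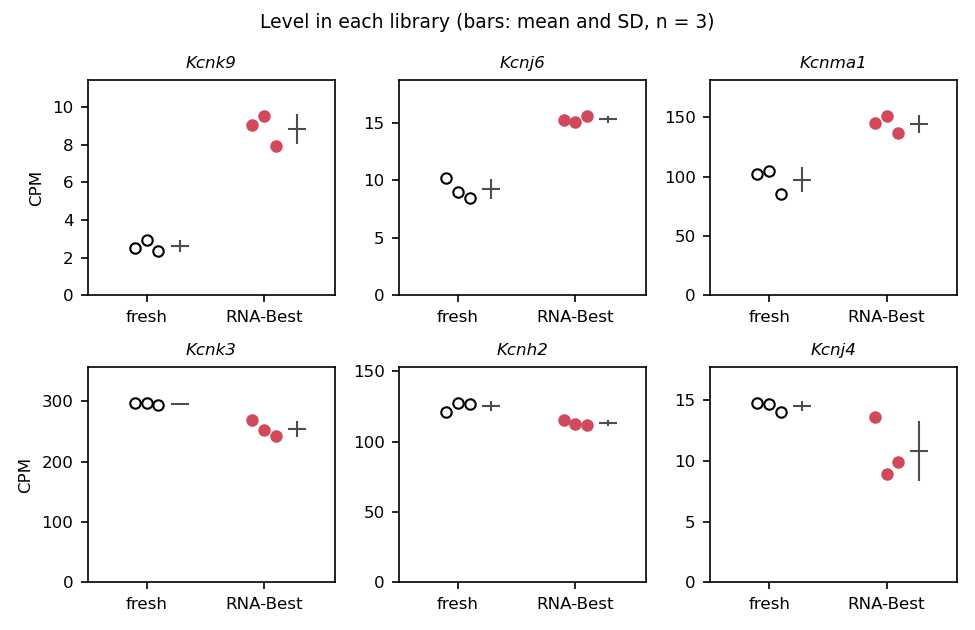
CPM of 6 potassium channel genes in each library on linear axes from 0, with open circles for fresh and red circles for RNA-Best libraries and bars for the mean and SD (n = 3). *Kcnk9*, *Kcnj6* and *Kcnma1* were higher and *Kcnk3*, *Kcnh2* and *Kcnj4* lower in RNA-Best, with no overlap between the groups.

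The make-up of the potassium channel transcripts was compared as the share of each class in the summed CPM per kb of all members. The two-pore class made up 26.4% ± 0.325 in fresh and 23.3% ± 0.381 in RNA-Best, and the auxiliary class 22.2% ± 0.221 and 21.1% ± 0.544 (SD, n = 3 each). The voltage-gated class made up 37.3% ± 0.201 and 39.1% ± 0.0199 and the calcium- or sodium-activated class 6.0% ± 0.284 and 8.03% ± 0.307 (SD, n = 3 each). The groups did not overlap in these 4 classes, but 3 libraries against 3 allow no p below 0.1 in an exact permutation test, so that test could not reach 0.05 and no other was run on the shares. The inward rectifiers made up 8.10% ± 0.148 and 8.49% ± 0.364 (SD, n = 3 each), and their groups overlapped. Shares of one whole are tied to each other, and the two-pore share is mostly that of *Kcnk3*. The summed level of all members was 329.8 ± 3.90 CPM per kb in fresh and 325 ± 7.72 CPM per kb in RNA-Best libraries (SD, n = 3 each).

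**Figure D3:**
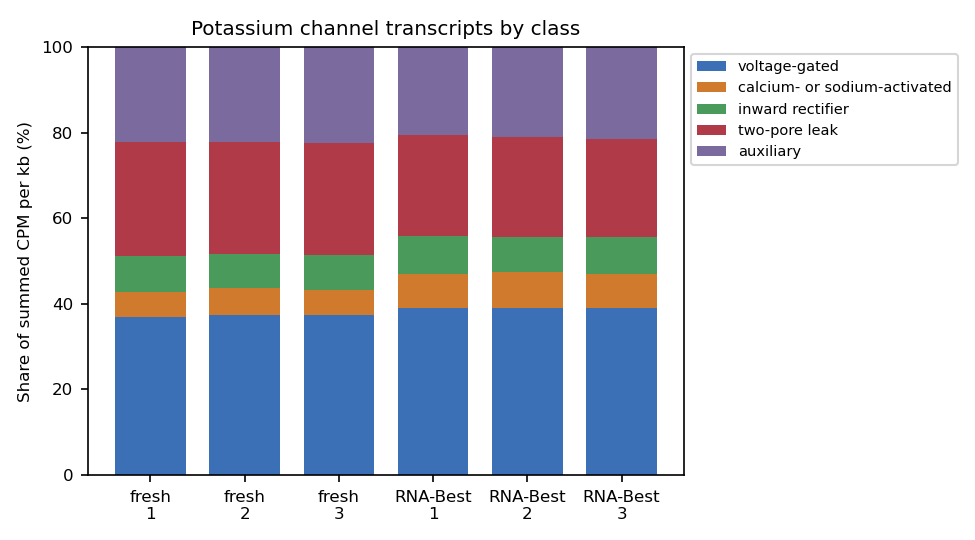
Share of 5 classes of potassium channel genes in the summed CPM per kb of all 92 members, 1 stacked bar for each library. The two-pore share averaged 26.4% in the fresh and 23.3% in the RNA-Best group, with 6.0% and 8.03% for the calcium- or sodium-activated share.

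The direction of the differences went with the length of the gene. Across the 43 members tested, Spearman's rho between exonic length and log2 fold change was 0.728. This is a description over genes measured in the same 6 libraries, and over all protein-coding genes tested rho was 0.606. All 9 members over 8 kb were higher in RNA-Best, of 20 members between 4 and 8 kb 8 were higher and 1 lower, and of 14 members under 4 kb 1 was higher and 4 lower. The members called higher had a median exonic length of 8.55 kb and those called lower 3.13 kb, and the members tested were longer (5.215 kb) than the protein-coding genes tested (4.521 kb). The share of all genes called at each length is not given here, so the counts of called members by length have no background. In protein-coding genes of 8 to 12 kb the median log2 fold change was 0.22, with a lower quartile of 0.078. Above 12 kb the median was 0.37 and the lower quartile 0.23. Most protein-coding genes over 8 kb thus lay above 0 too, and the 9 of 9 is not particular to potassium channels. *Kcnk9*, with 12.3 kb, stood far above both medians at 1.67.

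**Figure D4:**
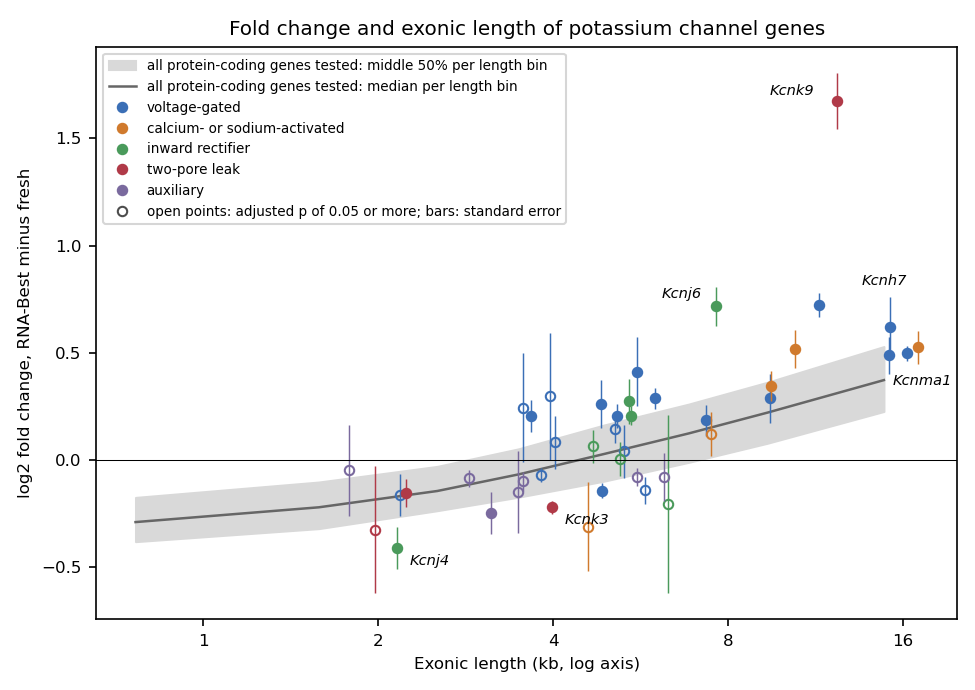
The log2 fold change (RNA-Best minus fresh) of 43 potassium channel genes against exonic length in kb on a log axis, coloured by class, with bars for the standard error and filled points for an adjusted p under 0.05 in edgeR. The grey line and band give the median and the middle 50% of all protein-coding genes tested in each length bin; the points rise with length as the band does, and *Kcnk9* lies far above it.

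The test was also run with an offset that takes out, in each library, the smooth trend of the counts with exonic length. With this offset 13 of the 43 members passed, 8 higher and 5 lower, against 42.3% of all genes tested, 14.7% higher and 27.6% lower. The median over the members was 0.031 and over all genes tested -0.051. Of the 18 members called higher without the offset, 8 were also called higher with it, and of the 5 called lower 3 were called lower with it. Among the 8 were *Kcnk9* (1.36), *Kcnj6* (0.54), *Kcnn3* (0.25), *Kcnc4* (0.20) and *Kcnj2* (0.12), and the 3 were *Kcnj4* (-0.35), *Kcnk3* (-0.24) and *Kcnh2* (-0.20). The offset moved *Kcnma1* from 0.52 to 0.11, and it no longer passed, nor did *Kcnh7*, *Kcnb2*, *Kcnt1*, *Kcnd2*, *Kcnc1*, *Kcna4*, *Kcnh1*, *Kcns2* and *Kcnj10* among the higher members and *Kcnk1* and *Kcnmb2* among the lower ones. *Kcnab2* (-0.17) and *Kcnh3* (-0.24) passed as lower with this offset and not without it. After it Spearman's rho over the 43 members was still 0.446, so some of the trend remained. With an offset for GC content in place of length, 17 of the 43 members passed, 13 higher and 4 lower, against 49.0% of all genes tested, 20.9% higher and 28.1% lower. The 6 calls lost were *Kcnh2*, *Kcnj2*, *Kcnd2*, *Kcna4*, *Kcns2* and *Kcnj10*, while *Kcnb2* passed at 0.30.

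**Figure D5:**
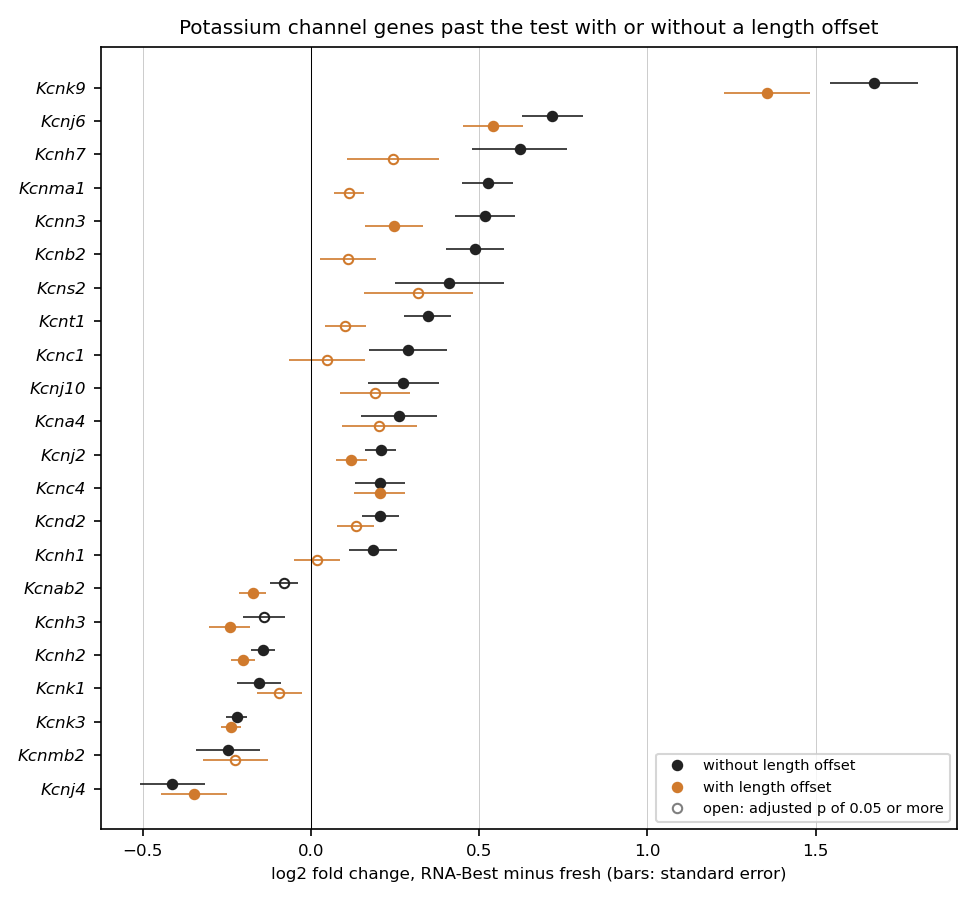
The log2 fold change (RNA-Best minus fresh) of 22 potassium channel genes that passed edgeR's test without or with an offset for exonic length, in black and orange, with bars for the standard error and filled points for an adjusted p under 0.05. Most of the higher values move toward 0 with the offset, *Kcnk9* from 1.67 to 1.36 and *Kcnma1* from 0.52 to 0.11.

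The differences of *Kcnk9*, *Kcnj6* and *Kcnn3* passed the test under every alternative of scaling, filter, test, offset, depth and left-out library that was run. Thinning to equal depth ended the calls of *Kcnd2*, *Kcnh7*, *Kcnj4*, *Kcnk1*, *Kcnmb2*, *Kcnc4*, *Kcna4*, *Kcns2* and *Kcnj10*. DESeq2's Wald test ended those of *Kcnk1*, *Kcnmb2*, *Kcnc1*, *Kcnc4*, *Kcna4*, *Kcnh1*, *Kcns2* and *Kcnj10*. In 9 of the 23 called members, leaving out a single library ended the call. Each is given with its edgeR adjusted p without those libraries and, second, the span of the adjusted p over all alternatives, DESeq2 and limma voom included. *Kcnk1* was lost without any library but fresh library 3 (0.050 to 0.201, and 0.0124 to 1 over all), *Kcna4* without any but fresh library 1 (0.0781 to 0.178, and 0.0194 to 0.814) and *Kcnc1* without any but fresh library 2 (0.0677 to 0.106, and 0.00879 to 0.791). These 3 calls lay nearest to the threshold. *Kcnc4* was lost without fresh library 1 or RNA-Best library 1 or 2 (0.0540 to 0.221, and 0.000621 to 1), and *Kcnh1* without fresh library 3 or RNA-Best library 1 or 3 (0.0736 to 0.215, and 0.00588 to 1). *Kcnmb2* was lost without fresh library 1 or RNA-Best library 2 or 3 (0.0775 to 0.125, and 0.000248 to 0.888), and *Kcns2* without fresh library 1 or RNA-Best library 1 or 3 (0.0540 to 0.291, and 0.0257 to 0.353). *Kcnj10* was lost without RNA-Best library 1 (0.193, and 0.0223 to 0.744), and *Kcnj4* as given above. In the other direction, *Kcng4* passed without RNA-Best library 1 (0.0218, and 0.00441 to 1), *Kcnip3* without RNA-Best library 3 (0.0122, and 0.00484 to 1) and *Kcnab3* without fresh library 1 (0.0405, and 0.00752 to 1). *Kcnh3* passed without fresh library 1 (0.0051, and 0.00074 to 1) and *Kcnv2* without fresh library 3 or RNA-Best library 2 (0.0384 to 0.0396, and 0.0384 to 1).

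Some members share exonic bases with genes on the other strand, and the sources do not say whether the counting used strand, so reads of such pairs cannot be told apart. The overlap covered 31.1% of the exonic length of *Kcnj3*, 8.01% of *Kcnk1*, 5.98% of *Kcnma1*, 5.76% of *Kcnk3*, 5.13% of *Kcnab3*, 4.98% of *Kcnj6* and 4.57% of *Kcnh7*. *Kcnk9*, *Kcnn3*, *Kcnj4* and *Kcnh2* shared no exonic base with another gene in this annotation. Parts of counts, which arise when a read is divided between genes or places, were present in 8 expressed members, among them *Kcnk3*, *Kcng4*, *Kcnt1*, *Kcnh2*, *Kcnab3*, *Kcnip3* and *Kcnj10*, whose levels are uncertain to that extent.

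Genes that work with these channels were taken from 3 lists chosen for known function. Of 16 channel partners 9 were tested, of which 2 were higher and 4 lower in RNA-Best, against 26.0% and 24.7% of all genes tested. Under the length offset 4 of the 9 were lower and 5 did not pass, where 27.6% of all genes tested were lower. Calmodulin is the calcium sensor of Kcnn channels, and its genes stood high, with *Calm2* at 927 ± 21.0 CPM in fresh and 817 ± 23.3 CPM in RNA-Best libraries (SD, n = 3 each) and *Calm3* at 647 ± 5.93 and 574 ± 2.51 CPM. Both were lower, and they were lower with the length offset too. *Dpp10*, a subunit of Kcnd channels, stood at 466 ± 9.98 CPM and 501 ± 0.539 CPM (fresh and RNA-Best, SD, n = 3 each), and its log2 fold change of 0.10 turned to -0.29 with the length offset. Of 10 hyperpolarization-activated and cyclic nucleotide-gated cation channels, which share the pore fold, 4 were tested and 1 was higher, against 26.0% of all genes tested. This was the pacemaker channel *Hcn4*, from 5.80 ± 0.277 to 7.77 ± 1.19 CPM (SD, n = 3 each), while *Hcn2* (55.9 ± 1.0 and 57 ± 1.5 CPM), *Hcn3* (33.2 ± 1.80 and 32.8 ± 0.270 CPM) and *Cngb1* (7.38 ± 0.376 and 8.59 ± 2.07 CPM) did not pass.

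A list of 19 potassium transport genes held pumps, cotransporters and 3 intracellular cation channels (*Tmem175*, *Tmem38a* and *Tmem38b*), and 14 were tested, of which 5 were higher and 5 lower, against 26.0% and 24.7% of all genes tested. Without RNA-Best library 1 the number called fell from 10 to 6. Of the beta subunits of the sodium pump, which builds the potassium gradient, *Atp1b1* was higher, from 289 ± 8.47 to 334 ± 10.9 CPM (SD, n = 3 each). *Atp1b3* was lower, from 152 ± 3.24 to 142 ± 4.00 CPM, though not with the length offset (-0.032, edgeR adjusted p = 0.458), and *Atp1b2* (234 ± 3.75 and 230.1 ± 3.11 CPM, SD, n = 3 each) did not pass. With the length offset 1 of these 14 genes was higher and 5 were lower, against 14.7% and 27.6% of all genes tested, and *Atp1b1* kept its direction.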

How the data were processed

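Bulk mRNA of LβT2 cells was measured in 3 fresh and 3 RNA-Best libraries as single reads of 101 bases. The authors aligned the reads to GRCm38 (mm10) with STAR 2.5.1b and counted them per gene of GENCODE M8 with featureCounts 1.5.0-p1, and the deposited values are estimated counts that are not scaled for library size. Fractional values, those over 0.001 away from an integer, made up 9.36% to 16.3% of each library's entries, and the setting that divides reads and the use of strand are not given in the sources used here.

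Counts were rounded and analysed in R 4.3.3 with the quasi-likelihood test of edgeR 4.0.16 (TMM, filterByExpr with a minimum count of 10, robust), adjusted over all genes tested. DESeq2 1.42.0, limma 3.58.1 (voom), glmTreat against a 1.2-fold change, loess offsets for exonic length and GC content (span 0.5), thinning to the smallest library, the replicate number as a block and leaving out each library were alternatives. Exonic lengths, positions and coding sequences came from GENCODE M21 on the same assembly, a later release than M8. The edgeR step was tested on simulated data. The members and lists were chosen with earlier results of these data known. Named with statistics by rule were the called members with the 8 highest and the 8 lowest log2 fold changes, the highest member per kb of each subfamily, members known for an endocrine current, those next to 1 CPM and at most 4 genes of each partner list. Other members given with a fold change or p, such as *Kcnc1*, *Kcna4*, *Kcnj10*, *Kcnab2* and *Kcnh3*, were chosen after their values were seen. Other experiments of the study were not analysed here, and a few genes are not reported here by name, though the counts and medians over members include them.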

Additional observations from a re-analysis of the deposited data

How the results depend on the processing

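The number of members expressed at 1 CPM or more was between 38 and 44 under every threshold, scaling, depth and left-out library tried. The number of members called, 23, was 15 with DESeq2's Wald test, 13 with the length offset, 14 with the replicate block and the length offset together, 14 in thinned libraries, 8 with glmTreat and 17 to 21 with 1 library left out. Of the 23 themselves, 11 passed with the length offset, 12 with the block and the length offset and 16 to 21 with 1 library left out. The number higher in RNA-Best, 18, was 8 with the length offset, 9 with the block and the length offset, 8 with glmTreat and 12 to 17 with 1 library left out. The number lower, 5, was 10 with no filter, 3 with DESeq2's Wald test, 2 in thinned libraries, 0 with glmTreat and 3 to 5 with 1 library left out, the 3 without RNA-Best library 2 or 3. The median log2 fold change, 0.12, was 0.036 with no filter, 0.031 with the length offset, 0.073 with the GC offset, 0.044 with the block and the length offset and 0.087 to 0.16 with 1 library left out, lowest without RNA-Best library 1. The number of potassium transport genes called, 10, was 6 with the length offset and 6 to 10 with 1 library left out. Shares of all genes that passed are given above only for the main test, DESeq2's Wald test and the length and GC offsets. Counts under the other settings are not set against a background.

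The deviations of same-numbered libraries were barely correlated (r = -0.00884, 0.0263 and -0.00303). The sources used here do not tell if libraries of the same number share a culture or a day, and these values do not settle it. With the replicate number as a block 23 members passed, 17 higher and 6 lower, 21 of them among those called without it. This count too has no share of all genes beside it.

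The cause of these shifts and of the changes of sign given next was not tested. The members that changed sign had not passed the test. *Kcnj3* turned from 0.0035 to -0.044 with no filter, -0.072 with the length offset, -0.13 with the GC offset, -0.062 with the block and the length offset and -0.019 to 0.039 with 1 library left out. With the GC offset *Kcng4* was 0.0079 and *Kcnab2* 0.0051, and in thinned libraries *Kcnj5* was -0.080 and *Kcna7* 0.0061. *Kcnn2* was -0.051 with the length offset and -0.079 with the block as well. *Kcnd1* was -0.0079 with no filter, -0.040 with the length offset, -0.056 in thinned libraries and -0.054 to 0.16 with 1 library left out. *Kcne3* was 0.031 with the length offset, 0.036 with the block as well and -0.14 to 0.11 with 1 library left out, and *Kcnip1* -0.13 to 0.023. *Kcnj15* was 0.0098 with DESeq2's Wald test, 0.17 with the block, 0.041 with the block and the length offset and -0.57 to 0.40 with 1 library left out.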

Other observations

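Noncoding and other genes whose names begin with Kcn lay outside the rule. *Kcnq1ot1*, the long noncoding RNA transcribed across the *Kcnq1* locus, had 10.8, 12.5 and 11.7 CPM in the fresh libraries and 16.3, 18.5 and 16.7 CPM in the RNA-Best libraries. Its log2 fold change of 0.53 turned to -0.27 with the length offset (edgeR adjusted p = 0.00793), at an exonic length of 93.1 kb. *Kcnq1* itself had a mean of 0.0112 CPM. *Kcnab3os*, which lies opposite *Kcnab3*, had a mean of 0.599 CPM. *Kcnd3os*, *Kcnmb4os1*, *Kcnmb4os2* and *Kcne1l* had no count, and *Kcnrg* had a mean of 0.0855 CPM.

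Some members lie close together and differ widely in level. On chromosome 11, *Kcnj2* had a mean of 62.1 CPM and *Kcnj16*, at a distance of 38.2 kb, 0.198 CPM. On chromosome 9, *Kcnj5* had 16 CPM and *Kcnj1*, at 28.1 kb, 0.0244 CPM. On chromosome 1, *Kcnj10* had 8.12 CPM and *Kcnj9*, at 11.9 kb, 0.290 CPM. In the Kcna clusters of chromosomes 3 and 6 the mean was at most 0.0660 CPM.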
